A study of Homo sapiens with 6 samples.

Results

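Liver-type plasma protein genes were followed across a pair of human breast cancer cell lines, LCCTam and SUM44. The group held 10 genes out of 11963 with a name on the array, namely the serpins SERPINA1, SERPINA3 and SERPINA5, the carriers and inhibitors AMBP, ALB, TTR and TF, the acute phase genes HP and ORM1, and the fibrinogen gene FGB. They were chosen by symbol, with earlier results of the LCCTam against SUM44 comparison known, so that comparison is a description of these genes and no test of them. Every probe set with 1 of these symbols alone was read, 19 in all, and 3 more that the annotation shares between HP and HPR or between ORM1 and ORM2 were kept apart. No filter on low values was applied.

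LCCTam is described by the labels as a tamoxifen-resistant variant of SUM44, and it was grown in SFIH medium with 500 nM 4-hydroxytamoxifen, the active metabolite of tamoxifen. SUM44 derives from a breast carcinoma of the invasive lobular type, labelled positive for estrogen and progesterone receptors, and was grown in the same medium with no drug listed. There were 3 LCCTam samples (passages 8, 9 and 10) and 3 SUM44 samples (passages 74, 75 and 76), each of total RNA on its own Affymetrix array. The line, the drug and the passage number cannot be told apart, and the labels do not call the passages separate cultures, so p-values reflect only how these samples vary, which may be technical. In bulk RNA, fewer cells that express a gene and less RNA per cell cannot be told apart.

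Hepatocytes make most proteins of blood plasma and secrete them at high rates, under transcription factors that include the HNF4, FOXA and C/EBP families. Many of these genes are also raised in the acute phase response, through interleukin 6, its receptor subunit IL6ST and STAT3. Serpins are inhibitors that trap proteases in a covalent complex, and some of them are also transcribed in epithelial cells and carcinomas. The serpin genes of this group lie in a cluster on the long arm of chromosome 14.

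Values are log2 expression after RMA, a method that removes background, aligns the arrays and gives 1 value for each probe set, so a step of 1 is a doubling. The values hold no detection calls, and brightness depends on the probes. Percentiles and words such as dim or bright place a reading among all readings. They do not rank the amounts of different transcripts. The median was 5.92 to 5.97 on all 6 arrays. The array of LCCTam passage 10 stood apart in its actin control, where the 3' minus 5' difference was 1.92, against 0.90 to 1.15 on the other 5 arrays. In the GAPDH control this difference was 0.61, against 0.09 to 0.31. The 75th percentile of the values on that array was 7.50, against 7.68 to 7.78 on the others. Keratin and epithelial genes were bright, with KRT18 at 13.18 in LCCTam and 13.40 in SUM44, and EPCAM at 11.30 and 11.60. PGR, the progesterone receptor gene, was at 3.85 in both lines, near the lowest values of the arrays. Of 15 leukocyte markers 0 passed an adjusted p of 0.05 in limma and 1 had an unadjusted p under 0.05, with a highest mean of 6.23 in LCCTam and 6.28 in SUM44. The largest difference was in SPI1, a myeloid transcription factor gene, at 5.74 in LCCTam and 5.29 in SUM44 (difference 0.45, limma adjusted p = 0.104). SPI1 passed without LCCTam passage 9 (0.60, adjusted p = 0.0394) and with array quality weights (0.49, adjusted p = 0.00629). With those weights 3844 of all 11963 genes passed, against 948 without them. Of 12 fibroblast and endothelial markers 0 passed in limma, 0 also at an unadjusted p under 0.05, with a highest mean of 6.82 in each line, and PECAM1, an endothelial adhesion gene, differed most (-0.18, limma adjusted p = 0.261).

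The group split. In LCCTam, SERPINA1 and AMBP were higher, SERPINA3, SERPINA5 and 1 of the 3 ALB probe sets were lower, and the probe sets of TTR, TF, HP, ORM1 and FGB differed by 0.22 or less in size. In limma over all genes, with the brightest probe set for each, 5 of the 10 genes passed an adjusted p of 0.05, 2 of them higher and 3 lower. The share over all 11963 genes was 7.92%, with 2.09% higher and 5.83% lower. Of the 19 probe sets, 6 passed in the fit of 19065 probe sets, 3 higher and 3 lower, where 7.37% of all passed, 1.72% higher and 5.65% lower. The same 6 were those with a difference of at least 1 in size, which 2.24% of all probe sets had. LCCTam and SUM44 had separate ranges for 8 of the 19, 5 with LCCTam above and 3 with LCCTam below. Of all probe sets 29.6% had separate ranges, 13% with LCCTam above and 16.6% with LCCTam below. Since the genes were chosen on this contrast, nothing is read from these counts.

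**Figure D1:**
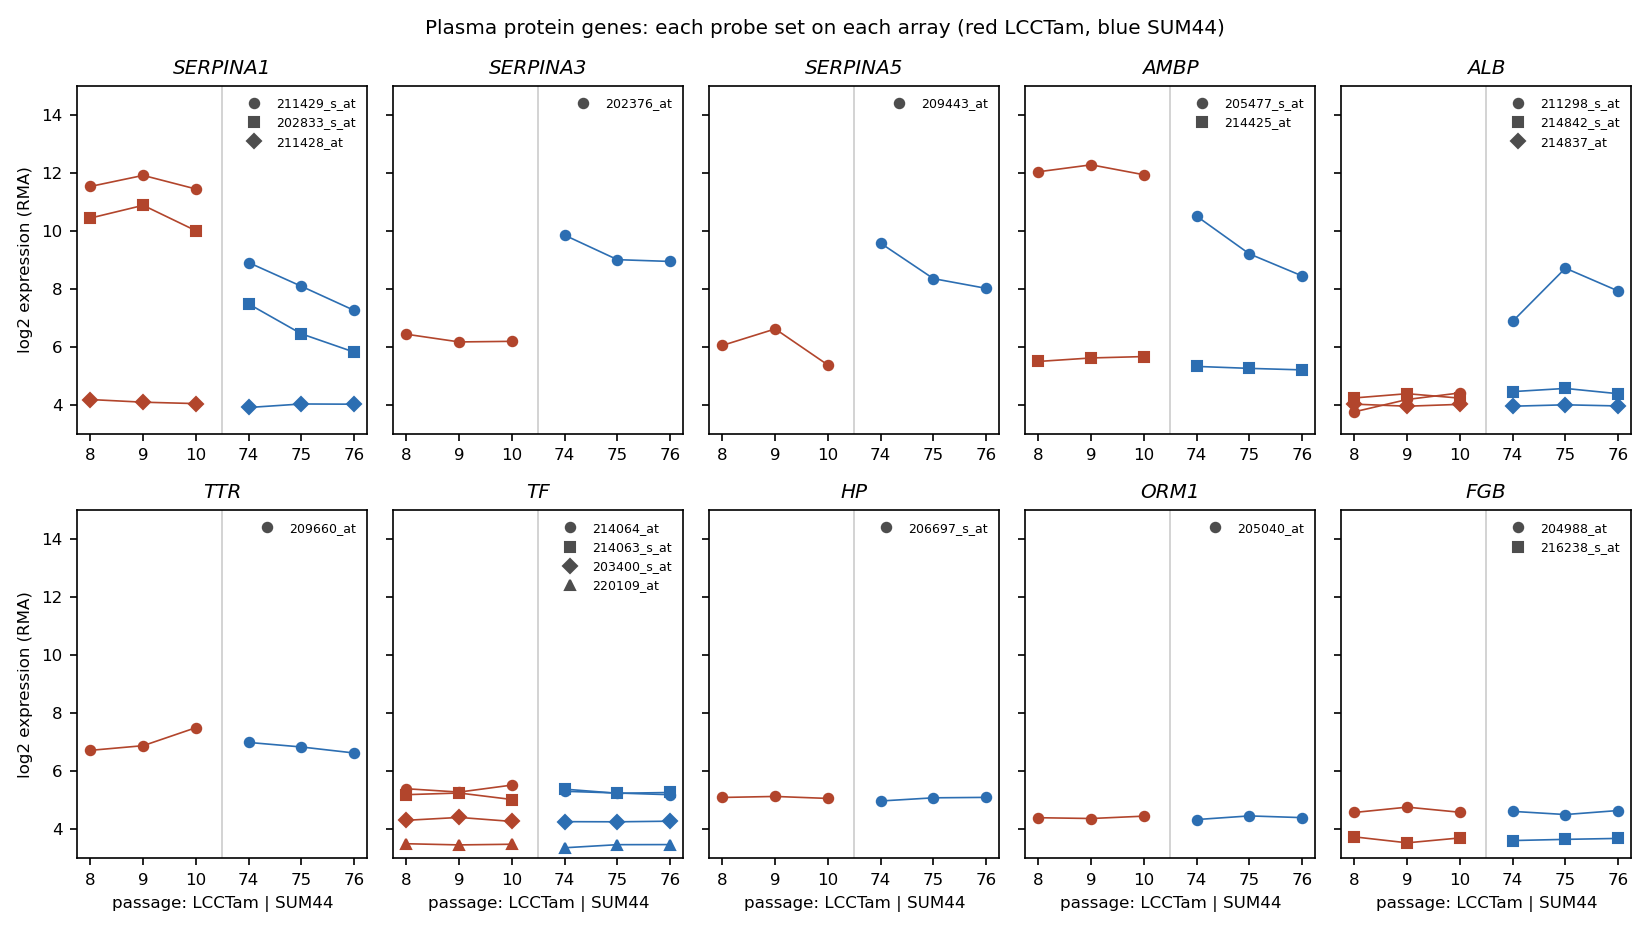
Log2 expression (y axis) of each of the 19 probe sets on each array (x axis, passage number), with LCCTam in red left of SUM44 in blue and 1 panel for each gene; lines only join arrays of a line. SERPINA1 and AMBP lie above SUM44 in LCCTam, SERPINA3, SERPINA5 and the brightest ALB probe set lie below it, and the lower row is nearly flat.

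The promoters of the 5 genes that moved are shown because members that moved the same way, and those that moved apart, can then be set side by side. Each window runs from 250 bases before to 50 bases after a RefSeq transcript start in build GRCh38.p14, written 5′ to 3′ on the gene's strand, and capitals mark matches on either strand to the motifs CCAAT, TTCNNNGAA and AGATAA. The windows are chr14:94388553-94388852 (minus strand) for SERPINA1, chr9:114078251-114078550 (minus strand) for AMBP, chr4:73404037-73404336 (plus strand) for ALB, chr14:94612141-94612440 (plus strand) for SERPINA3 and chr14:94581176-94581475 (plus strand) for SERPINA5. SERPINA1 has a second listed start upstream of this one, known as the start used in monocytes, while the downstream start is the one known from hepatocytes. The array does not tell which start was used.
SERPINA1: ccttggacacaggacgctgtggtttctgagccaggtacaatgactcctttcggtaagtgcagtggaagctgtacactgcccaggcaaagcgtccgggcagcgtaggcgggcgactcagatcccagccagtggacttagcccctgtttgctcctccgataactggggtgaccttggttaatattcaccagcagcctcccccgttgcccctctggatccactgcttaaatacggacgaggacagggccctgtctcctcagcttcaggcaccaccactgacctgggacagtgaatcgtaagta
AMBP: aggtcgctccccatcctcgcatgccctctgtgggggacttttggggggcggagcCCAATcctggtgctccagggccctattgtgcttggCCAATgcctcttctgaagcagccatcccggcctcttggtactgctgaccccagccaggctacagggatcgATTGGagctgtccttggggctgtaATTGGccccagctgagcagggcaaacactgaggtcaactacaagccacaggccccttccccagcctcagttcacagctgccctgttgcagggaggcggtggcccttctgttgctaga
ALB: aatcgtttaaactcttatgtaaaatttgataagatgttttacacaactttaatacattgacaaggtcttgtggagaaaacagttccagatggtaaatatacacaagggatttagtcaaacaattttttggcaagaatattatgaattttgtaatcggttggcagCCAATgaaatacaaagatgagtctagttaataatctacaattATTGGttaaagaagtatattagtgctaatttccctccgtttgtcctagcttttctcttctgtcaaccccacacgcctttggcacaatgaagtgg
SERPINA3: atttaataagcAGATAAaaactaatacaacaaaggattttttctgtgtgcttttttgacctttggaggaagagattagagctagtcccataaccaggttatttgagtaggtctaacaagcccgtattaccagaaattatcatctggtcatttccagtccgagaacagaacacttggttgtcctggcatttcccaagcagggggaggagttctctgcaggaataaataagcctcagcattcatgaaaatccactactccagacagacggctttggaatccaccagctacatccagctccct
SERPINA5: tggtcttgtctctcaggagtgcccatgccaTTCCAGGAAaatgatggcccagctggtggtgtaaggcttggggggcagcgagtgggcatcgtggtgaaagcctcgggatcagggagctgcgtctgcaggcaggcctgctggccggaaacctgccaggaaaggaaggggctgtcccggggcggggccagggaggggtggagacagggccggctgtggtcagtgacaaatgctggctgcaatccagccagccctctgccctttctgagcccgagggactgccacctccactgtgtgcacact

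Windows were listed for 8 of the 10 genes, with 11 starts in all. The estrogen response element, searched as GGTCA and TGACC with any 3 bases between them and found in 0.057% of the 35116 windows in the RefSeq table, and the extended half-site TCAAGGTCA bound by estrogen-related receptors, in 0.353%, had no match in the 11 windows. These motifs share the letters GGTCA, and both strands were searched. The core TTCNNNGAA of STAT sites, in 7.66% of windows, matched in SERPINA5 alone of the 8 genes, from 220 to 212 bases before its start. The GATA core, searched only as AGATAA and found in 10.3%, matched in SERPINA3 alone, from 239 to 234 bases before its start. Other forms of a GATA site, such as TGATAA, which is in the ALB and FGB windows, were not searched. CCAAT, in 34.6%, matched in ALB, AMBP, FGB and TF, with 4 matches in the AMBP window and 2 in the ALB window. The SERPINA1 windows held none of these motifs. The 4 genes with CCAAT were higher (AMBP), lower on 1 of 3 probe sets (ALB) and different by 0.15 or less in size on every probe set (FGB and TF) in LCCTam. A match is a string of letters, not a site shown to be bound.

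SERPINA1 encodes alpha-1 antitrypsin, the main plasma inhibitor of neutrophil elastase. Its brightest probe set, 211429_s_at, read 11.54, 11.92 and 11.45 in LCCTam passages 8, 9 and 10, against 8.91, 8.09 and 7.26 in SUM44 passages 74, 75 and 76. All LCCTam values lay above all SUM44 values, with 2.54 between the nearest of them. LCCTam minus SUM44 was 3.55 (SE 0.38), or 11.7-fold.

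A second SERPINA1 probe set, 202833_s_at, read 10.44, 10.88 and 10.01 in LCCTam, against 7.48, 6.45 and 5.82 in SUM44, a difference of 3.86 (SE 0.42), or 14.5-fold. The nearest values of the lines were 2.53 apart. On both probe sets LCCTam was highest at passage 9 and SUM44 was highest at passage 74 and lowest at passage 76. The last SERPINA1 probe set, 211428_at, was dim on every array, at 4.18, 4.09 and 4.04 in LCCTam against 3.91, 4.03 and 4.02 in SUM44. It differed by 0.12 (SE 0.08), although the annotation gives it the same source sequence as 211429_s_at. The large SERPINA1 difference was therefore read by 2 of its 3 probe sets.

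SERPINA3 encodes alpha-1 antichymotrypsin, an acute phase serpin that inhibits cathepsin G and chymase. Its 1 probe set read 6.44, 6.17 and 6.19 in LCCTam, against 9.85, 9.01 and 8.95 in SUM44. Every LCCTam value was below every SUM44 value by at least 2.51. The difference was -3.00 (SE 0.24), an 8.02-fold lower value in LCCTam.

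SERPINA5 encodes the protein C inhibitor, which acts on activated protein C, urokinase and kallikreins. Its 1 probe set read 6.05, 6.62 and 5.38 in LCCTam, against 9.58, 8.36 and 8.02 in SUM44. The lines did not overlap, with 1.40 between their nearest values. The difference was -2.63 (SE 0.45), a 6.21-fold lower value in LCCTam, and it was -2.31 without the array of LCCTam passage 10.

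The serpin genes moved in opposite directions within 1 gene cluster. In the RefSeq order of chromosome 14, SERPINA5 and SERPINA3 are neighbours, and 4 other protein-coding genes lie between SERPINA1 and SERPINA5. Of these, SERPINA4, the kallistatin gene, was measured, at 6.09 in LCCTam and 6.17 in SUM44, a difference of -0.08 (SE 0.10). On the other side of SERPINA1, SERPINA6, which encodes the cortisol carrier of plasma, was at 5.04 in LCCTam and 4.81 in SUM44, and SERPINA10, the gene of a clotting inhibitor, at 4.70 and 4.57. Of the 10 cluster and neighbouring genes measured beside the serpins of the group, 0 rose, 1 fell and 9 did not pass. An unadjusted p under 0.05 was found for 5, a count with no share over all genes beside it, so nothing is read from it. The median difference was 0.15 against 0.02 over all genes. Of the 9 that did not pass, DICER1 (-0.80, SE 0.27) and OTUB2 (0.58, SE 0.16) differed most. The 10 genes include SERPINA2, a close relative of SERPINA1 that is not among the protein-coding genes of this stretch in RefSeq and is therefore absent from the plot in chromosome order. The gene that fell was IFI27, an interferon-stimulated gene, which read 4.91, 4.83 and 4.74 in LCCTam against 8.60, 9.12 and 8.66 in SUM44 (difference -3.97, SE 0.15, limma adjusted p = 0.000121). It passed with each of the 6 arrays left out.

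**Figure D2:**
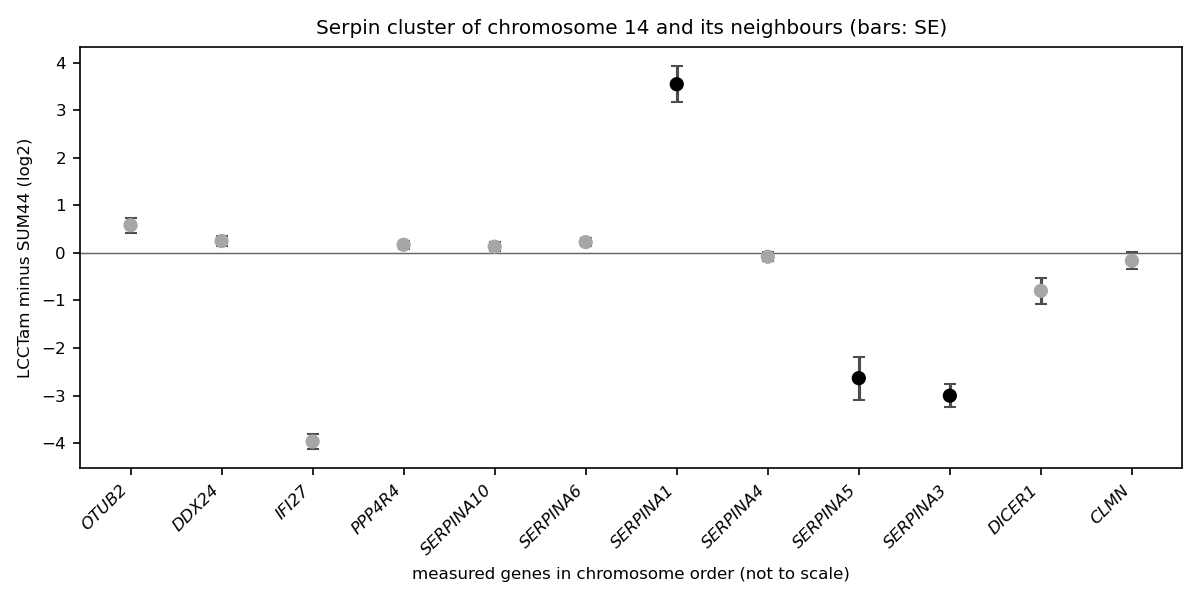
LCCTam minus SUM44 on the log2 scale (y axis, bars give the SE) for the 12 measured protein-coding genes of the chromosome 14 stretch from OTUB2 to CLMN, in chromosome order and not to scale (x axis), with the serpins of the group in black. SERPINA1 is at 3.55, SERPINA5 at -2.63 and SERPINA3 at -3.00, while SERPINA4 and SERPINA6 between and beside them lie within 0.23 of 0. IFI27 is at -3.97, DICER1 at -0.80 and OTUB2 at 0.58.

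AMBP encodes a precursor that is split into alpha-1-microglobulin, a heme-binding carrier, and bikunin, a protease inhibitor. Its brighter probe set, 205477_s_at, read 12.04, 12.28 and 11.94 in LCCTam, against 10.51, 9.21 and 8.45 in SUM44. The lines did not overlap, with 1.43 between them at the nearest. The difference was 2.70 (SE 0.47), or 6.49-fold.

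The other AMBP probe set, 214425_at, read 5.50, 5.62 and 5.67 in LCCTam, against 5.33, 5.26 and 5.21 in SUM44. LCCTam was again above SUM44 on every array, by 0.17 or more, but the difference was 0.33 (SE 0.09). The AMBP probe sets therefore had the same direction and different sizes. Without SUM44 passage 76 the difference of the brighter one was 2.23, and without SUM44 passage 74 it was 3.26.

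ALB encodes albumin, the most abundant plasma protein and a carrier of fatty acids, and its 3 probe sets disagreed. The probe set 211298_s_at read 3.76, 4.19 and 4.41 in LCCTam, against 6.88, 8.72 and 7.93 in SUM44. The lines did not overlap, with a gap of 2.47, and the difference was -3.72 (SE 0.43). The probe set 214842_s_at read 4.24, 4.39 and 4.23 in LCCTam against 4.46, 4.57 and 4.39 in SUM44, which overlapped narrowly (difference -0.18, SE 0.09). The probe set 214837_at read 4.03, 3.95 and 4.02 in LCCTam against 3.95, 4.00 and 3.96 in SUM44 (difference 0.03, SE 0.07). These last probe sets share their source sequence, and both were dim in both lines, between percentiles 7.29 and 17.3 of all named probe sets. The ALB difference was thus read by 1 of 3 probe sets, and which of them follows the ALB transcript was not tested. In LCCTam the probe set that differed was itself at percentile 10.1, a level not shown to be above background, so no fold is given.

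TTR, which encodes transthyretin, a carrier of thyroxine and of the retinol-binding protein, was at an intermediate level and did not separate the lines. Its 1 probe set read 6.73, 6.89 and 7.51 in LCCTam, against 6.998, 6.84 and 6.63 in SUM44. The ranges overlapped. The difference was 0.22 (SE 0.21), and without the array of LCCTam passage 10, the highest of the 6, it was -0.02.

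TF here is the transferrin gene, whose product carries iron in plasma. Its 4 probe sets lay between 3.36 and 5.53 on every array and overlapped between the lines. The brightest, 214064_at, read 5.40, 5.29 and 5.53 in LCCTam, against 5.31, 5.25 and 5.19 in SUM44 (difference 0.15, SE 0.09). The others differed by -0.14, 0.06 and 0.05.

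HP encodes haptoglobin, which binds free hemoglobin. It read 5.10, 5.13 and 5.07 in LCCTam, against 4.98, 5.09 and 5.10 in SUM44, a difference of 0.04 (SE 0.08). The probe set shared with HPR read 4.54, 4.69 and 4.98 in LCCTam against 4.55, 4.33 and 4.47 in SUM44, a difference of 0.29 with overlapping values. ORM1 encodes orosomucoid, an acute phase glycoprotein that binds basic drugs. It read 4.40, 4.37 and 4.46 in LCCTam, against 4.34, 4.46 and 4.40 in SUM44 (difference 0.01, SE 0.08), and the 2 probe sets shared with ORM2 differed by 0.05 and 0.16.

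FGB encodes the beta chain of fibrinogen, the precursor of fibrin. Its probe set 204988_at read 4.58, 4.77 and 4.59 in LCCTam, against 4.62, 4.51 and 4.65 in SUM44 (difference 0.05, SE 0.09), and 216238_s_at differed by 0.01. Across HP, ORM1 and FGB the lines overlapped on every probe set with 1 symbol. With no detection calls, levels this low do not tell whether TF, HP, ORM1 and FGB were expressed.

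**Figure D3:**
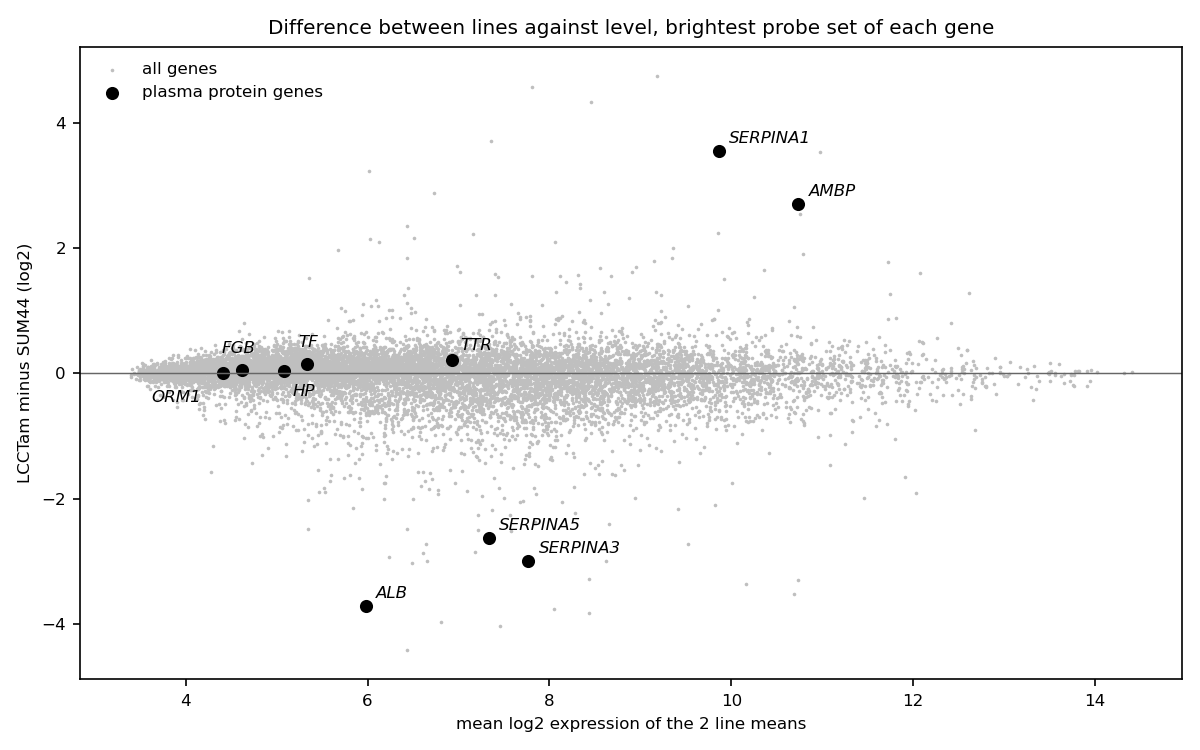
LCCTam minus SUM44 on the log2 scale (y axis) against the mean of the line means (x axis, log2 expression) for the brightest probe set of each of the 11963 genes, with the plasma protein genes in black. SERPINA1 at 3.55 and AMBP at 2.70 lie above the cloud, SERPINA3, SERPINA5 and ALB lie between -2.63 and -3.72, and the other 5 lie within 0.22 of 0.

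The genes that separated the lines also varied widely among the SUM44 samples. The SD over the 3 SUM44 arrays was 1.04 for AMBP, 0.92 for ALB, 0.82 for SERPINA1, 0.82 for SERPINA5 and 0.51 for SERPINA3, on the probe set that stands for each gene. These SDs were at percentiles 97.8 to 99.8 of the SUM44 SDs of all named probe sets, whose median was 0.10. Over the 3 LCCTam arrays the SDs were 0.18 for AMBP, 0.33 for ALB, 0.25 for SERPINA1, 0.62 for SERPINA5 and 0.15 for SERPINA3, where the median of all probe sets was 0.15. SERPINA5 therefore varied widely in both lines, while AMBP and SERPINA3 had SDs close to the median in LCCTam.

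In SUM44, SERPINA1, AMBP, SERPINA3 and SERPINA5 were each highest at passage 74 and lowest at passage 76, both the genes that were higher and those that were lower in LCCTam. ALB had another order, lowest at passage 74 and highest at passage 75. Of the 317 genes with a SUM44 SD of at least 0.5, or 2.65% of all genes, 139 were highest at passage 74 and lowest at passage 76, which is 43.8%, and 23.1% of all genes had that order. Passage 76 was the SUM44 sample farthest from LCCTam for SERPINA1 and AMBP, and the nearest for SERPINA5 and SERPINA3. With any 1 array left out, the difference was 3.13 to 3.96 for SERPINA1, 2.23 to 3.26 for AMBP and -3.16 to -2.71 for SERPINA3. It was -2.95 to -2.17 for SERPINA5 and -4.20 to -3.29 for ALB. Leaving out 1 array could not change a direction, because the ranges of the lines did not overlap. Each passage is 1 sample, so an effect of passage and of the single sample cannot be told apart.

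The genes with the most similar profiles were found by the root mean square difference of their deviations from their own mean over the 6 arrays. For SERPINA1 the nearest of all genes was AMBP, at 0.45 log2 units, followed by the lipoprotein receptor gene LRP4 at 0.54 and SYNPO2L, an actin-associated protein gene, at 0.62. For AMBP the nearest was SERPINA1 at 0.45, then the lysosomal protease gene CTSD at 0.53 and the receptor tyrosine kinase gene RET at 0.54. CTSD read 11.82, 11.82 and 11.58 in LCCTam against 10.35, 9.69 and 9.49 in SUM44, so it too was highest at passage 74 within SUM44. For ALB the nearest were IFI27 at 0.48, the collagen gene COL3A1 at 0.54 and the connexin gene GJA1 at 0.63. These distances follow mainly the difference between the lines, and the profiles share the same 6 arrays.

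Few other plasma protein genes of hepatocytes passed the test. In 5 lists of clotting, complement, acute phase, carrier and apolipoprotein genes, 73 of 85 listed genes were measured beside the group. Of these, 3 rose, 2 fell and 68 did not pass, so 6.85% passed, close to the 7.92% over all genes, and 13 had an unadjusted p under 0.05. The share of all genes under that unadjusted p was not counted, so nothing is read from the 13. The median difference was 0.08, against 0.02 over all genes. The median level of these genes was 5.14 in LCCTam and 4.93 in SUM44. With 1 array left out, 1 to 6 of the 73 passed, where 259 to 1527 of all 11963 genes did. With array quality weights 17 of the 73 passed, where 3844 of all 11963 genes did. A gene that did not pass is not shown to be alike in the lines.

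Of 21 clotting and fibrinolysis genes 0 passed in limma and 1 had an unadjusted p under 0.05. The other fibrinogen chains were dim too, FGA at 5.51 in LCCTam and 5.56 in SUM44 and FGG at 3.94 and 3.92. F7, the factor VII gene, was at 6.68 in LCCTam and 6.36 in SUM44 (difference 0.32, adjusted p = 0.577). Its difference was 0.08 without LCCTam passage 9 and 0.66 without LCCTam passage 10. With array quality weights F7 passed (0.54, adjusted p = 0.0316), as did 3844 of all 11963 genes. Of 14 acute phase and inhibitor genes 0 passed in limma and 2 had an unadjusted p under 0.05, with the hemopexin gene HPX, a heme carrier, at 6.92 in LCCTam and 6.50 in SUM44 (difference 0.42, adjusted p = 0.206). The HPX difference was 0.23 without LCCTam passage 10 and 0.17 with array quality weights. CRP, the C-reactive protein gene, was at 4.79 in LCCTam and 4.82 in SUM44.

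Of 18 complement genes 2 rose and 0 fell, and 3 had an unadjusted p under 0.05. C3, the central complement component, averaged 6.30 ± 0.13 in LCCTam and 5.84 ± 0.03 in SUM44 (SD, n = 3 each; difference 0.46, limma adjusted p = 0.0316). C4BPB, a chain of the C4b-binding protein, averaged 5.37 ± 0.16 in LCCTam and 4.93 ± 0.04 in SUM44 (difference 0.44, limma adjusted p = 0.0475). The C4BPB levels, at percentiles 30.2 in LCCTam and 22.1 in SUM44 of all genes, are not shown to be above background. The C3 and C4BPB calls were lost with any 1 array left out other than LCCTam passage 10, where the adjusted p reached 0.139 and 0.176.

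Of 12 apolipoprotein genes 1 rose and 1 fell, and 4 had an unadjusted p under 0.05. APOA1, the main protein of high-density lipoprotein, read 6.62, 6.74 and 6.60 in LCCTam against 5.70, 5.84 and 5.75 in SUM44. The lines did not overlap, and the difference was 0.89 (SE 0.09, limma adjusted p = 0.00243). Its other probe set rose too, by 0.80, though both have the suffix _x_at, which marks probes that may also bind other transcripts. APOL1, an interferon-inducible apolipoprotein, averaged 6.13 ± 0.13 in LCCTam and 6.87 ± 0.19 in SUM44 (SD, n = 3 each; difference -0.74, limma adjusted p = 0.0163), and its call was lost without LCCTam passage 9, SUM44 passage 75 or SUM44 passage 76. Of 8 carriers 3 had an unadjusted p under 0.05, 0 rose and 1 fell, SELENOP, the selenium carrier of plasma, at 10.27 ± 0.21 in LCCTam and 10.98 ± 0.27 in SUM44 (SD, n = 3 each; difference -0.71, limma adjusted p = 0.0467). That call was lost in 4 of the 6 fits with 1 array left out and under quantile normalization (-0.65, adjusted p = 0.0786).

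**Figure D4:**
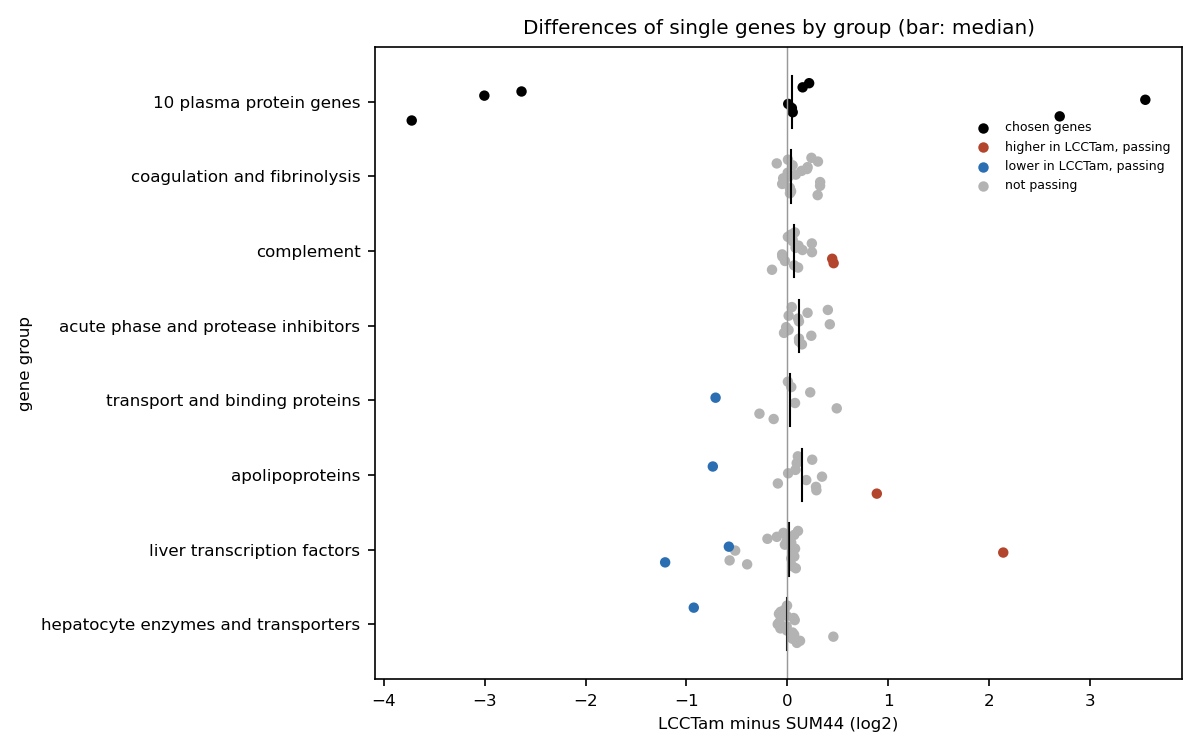
LCCTam minus SUM44 on the log2 scale (x axis) for single genes of each group (y axis), with the 10 chosen genes on top in black, other genes that passed an adjusted p of 0.05 in red (higher) or blue (lower), genes that did not pass in grey and the median as a bar. The 5 plasma protein lists have medians between 0.02 and 0.15, and none of their genes differs by more than 0.89.

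Among transcription factors of hepatocyte genes, 1 of the 20 measured was higher and 2 were lower at the threshold, or 15%, with a median difference of 0.02. GATA4, a zinc finger factor of endoderm and heart development, read 6.87, 7.32 and 7.09 in LCCTam against 4.83, 4.93 and 5.10 in SUM44. The lines did not overlap on its 1 probe set. LCCTam minus SUM44 was 2.14 (SE 0.14, limma adjusted p = 0.000445). The SUM44 level is not shown to be above background, so no fold is given. CEBPD, a C/EBP factor of the acute phase response, averaged 5.61 ± 0.09 in LCCTam and 6.82 ± 0.31 in SUM44 (SD, n = 3 each; difference -1.21, limma adjusted p = 0.00653). Its other probe set was dim, at 3.81 in LCCTam and 3.85 in SUM44, and differed by -0.03. HLF, a bZIP factor of liver, was lower on 1 of its 3 probe sets, at 4.43 ± 0.03 in LCCTam and 5.01 ± 0.10 in SUM44 (SD, n = 3 each; difference -0.58, limma adjusted p = 0.0113), and its call was lost without LCCTam passage 8. CEBPA, CEBPB and FOXA1 did not pass, at 0.05, -0.40 and 0.07.

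Among 20 genes of interleukin 6, interleukin 1 and glucocorticoid signalling, 1 rose and 2 fell, or 15%, with a median of -0.01. IL6ST, the signalling subunit gp130 shared by receptors of the interleukin 6 family, read 8.95, 8.57 and 8.80 in LCCTam against 10.68, 10.99 and 10.93 in SUM44. The lines were far apart, with a difference of -2.09 (SE 0.13, limma adjusted p = 0.000445), a 4.27-fold lower value in LCCTam. Of its 5 probe sets 4 fell and 1 did not pass. IL1R1, the signalling receptor of interleukin 1, averaged 7.16 ± 0.11 in LCCTam and 8.02 ± 0.21 in SUM44 (SD, n = 3 each; difference -0.86, limma adjusted p = 0.0105), and 1 of its 2 probe sets fell. PIAS3, an inhibitor of STAT3, averaged 7.65 ± 0.07 in LCCTam and 7.15 ± 0.09 in SUM44 (difference 0.50, limma adjusted p = 0.0199). The IL1R1 call was lost without LCCTam passage 8 or SUM44 passage 75, and the PIAS3 call in 4 of the 6 fits with 1 array left out. STAT3 itself was at 9.03 in LCCTam and 9.18 in SUM44 and did not pass, and IL6 was at 4.37 and 4.40.

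Receptors, target proteases and partners of the plasma proteins had 0 of 21 genes higher and 2 lower, or 9.52%, with a median difference of 0.04. STEAP3, a reductase that frees iron taken up with transferrin, read 7.44, 7.19 and 6.88 in LCCTam against 10.27, 9.37 and 8.56 in SUM44. The lines did not overlap, and the difference was -2.23 (SE 0.40, limma adjusted p = 0.0193). Within SUM44 it too was highest at passage 74 and lowest at passage 76. FCGRT, the neonatal Fc receptor that protects albumin and IgG from degradation, averaged 5.88 ± 0.24 in LCCTam and 6.51 ± 0.15 in SUM44 (SD, n = 3 each; difference -0.63, limma adjusted p = 0.0418). The STEAP3 call was lost in 3 and the FCGRT call in 5 of the 6 fits with 1 array left out.

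Markers of hepatocytes other than plasma proteins were read as well. Of 19 enzymes and transporters measured 0 rose and 1 fell, or 5.26%, where 7.92% of all genes passed. Their summed log2 level was 94.0 to 96.7 in LCCTam and 94.4 to 96.2 in SUM44. Such a sum can stay level while single genes change. The gene that fell was TDO2, which starts the breakdown of tryptophan, at 5.91 ± 0.04 in LCCTam and 6.83 ± 0.14 in SUM44 (SD, n = 3 each; difference -0.93, limma adjusted p = 0.00299). The median level of these markers was 4.51 in LCCTam and 4.44 in SUM44. CPS1, CYP7A1, PCK1 and G6PC1, defining enzymes of hepatocytes, lay at or below it, between 3.57 and 4.51 in both lines. Other markers read higher, with ASGR2 at 7.44 in LCCTam and 6.98 in SUM44. CYP3A4, SLC10A1 and AGXT lay between 5.57 and 6.27 in both lines. FBP1, an enzyme of gluconeogenesis, was at 10.00 in LCCTam and 10.10 in SUM44. Of the 12 luminal epithelial markers 0 rose and 2 fell. ESR1, the estrogen receptor alpha gene, averaged 11.08 ± 0.13 in LCCTam and 12.74 ± 0.23 in SUM44 (SD, n = 3 each; difference -1.65, limma adjusted p = 0.00124). Of its 9 probe sets 5 fell and 4 did not pass. MUC1, a luminal mucin gene, averaged 7.05 ± 0.14 in LCCTam and 8.42 ± 0.71 in SUM44 (difference -1.38, limma adjusted p = 0.0477), and that call was lost in 5 of the 6 fits with 1 array left out. In the fit of all named probe sets 1 of the 3 MUC1 probe sets fell. The one given here did not pass there (limma adjusted p = 0.0517).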

How the data were processed

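Each of the 6 total RNA samples was hybridized to its own Affymetrix array. The deposited log2 values were made by the authors with RMA in Bioconductor, per the labels' design text and the submitters' processing notes. Which RMA version and chip definition were used, and whether the arrays were run through it jointly, is not given in the sources used here. Scan dates were not used here. The number of arrays limits the precision.

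Of 22283 probe sets, 68 controls were left out, and 19065 others with 1 gene symbol were named from the platform annotation, with symbols updated through Entrez identifiers (RefSeq, GRCh38.p14). The brightest probe set by mean stood for each of 11963 genes. Differences are LCCTam minus SUM44, from limma 3.58.1 under R 4.3.3, with lmFit and eBayes and no filter, over all genes, and over all named probe sets for the members. Adjusted p-values are Benjamini-Hochberg values, and an adjusted p under 0.05 counted as passing. The share of all genes with an unadjusted p under 0.05 was not counted, so list counts at that level show no excess or lack. SEs are limma's, moderated over all features. Promoters are RefSeq's. Results on some listed factors and their motif are not reported here.

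Members and lists were chosen with earlier results of these data known. Named genes are all members, up to 3 passing genes a list with the largest differences (the largest as a value where none passed), and the 3 nearest profiles of SERPINA1, AMBP and ALB. Other named genes were picked after their values were seen, as neighbours in the cluster, partners of a member or background. The fit was also run on simulated data with independent values, which hold no effect of array quality or passage, and its outcome is not given here. Alternatives changed the probe set rule, the normalization, the variance model, the filter and the arrays included.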

Additional observations from a re-analysis of the deposited data

How the results depend on the processing

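The 6 member probe sets with a difference of at least 1 kept that size and their direction under quantile normalization. They also did so under median centring, an intensity trend, array weights, removal of the dimmest 25% and each single array left out. These other outcomes are no support. The intensity trend and the removal of dim probe sets do not enter a difference, and median centring shifts every difference by the same small amount. With array weights or 1 array left out the outcome was fixed in advance, because the lines were at least 1.40 apart on each of these probe sets. With only probe sets that lack the suffixes _s_at and _x_at, 2 of them were left, SERPINA3 and SERPINA5, because the SERPINA1, AMBP and ALB probe sets that differed carry _s_at. Under that rule 598 of the genes, 687 of the probe sets and 1 of the other plasma protein genes passed, against 948, 1405 and 5, with fewer tested. With array quality weights 3844 genes, 6207 probe sets and 17 other plasma protein genes passed, and the cause was not tested. The weights ran from 0.20 for LCCTam passage 10 to 4.02 for LCCTam passage 8. With 1 array left out, 259 to 1527 genes, 382 to 2238 probe sets and 1 to 6 other plasma protein genes passed. The lowest gene count came without SUM44 passage 75 and the highest without LCCTam passage 10, and 353 and 401 genes passed without LCCTam passages 8 and 9. Quantile normalization gave 501 genes higher and 592 lower, against 250 and 698, and array weights 1900 and 1944. PECAM1, an endothelial marker that did not pass, was at -0.18 and turned to 0.0027 (adjusted p = 0.985) with the mean of its probe sets. Without the suffixed probe sets CEBPD (-0.03) and HLF (-0.18) did not pass. Of the 17 passing genes named from the lists, 7 passed with each array left out, APOA1, IFI27, GATA4, CEBPD, IL6ST, TDO2 and ESR1. No paired analysis was possible because the lines share no passage number.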
